A study of Mus musculus with 12 samples.

Results

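The comparison set Etv4 knockout clone 2 against control in 4T1 cells, a mouse mammary carcinoma line, grown on plastic (2D). Its members are the 4 libraries of these groups out of 12 in the series, 2 of clone 2 and 2 of control, and all 13763 genes with enough counts to be tested, out of 31017 in the deposited tables. Clone 2 was obtained by selection after nucleofection with Cas9 and sgRNAs against Etv4, and is a single clone. The control cells were pools of clones nucleofected with control sgRNA. Both groups were kept in DMEM/F12 medium with serum, and polyadenylated RNA was sequenced as stranded mRNA libraries. The series also holds Etv4 knockout clone 1 in 2D, and clone 1, clone 2 and control in collagen I gels (3D). Loss of Etv4 and other differences between a clone and a pool of clones cannot be told apart with 1 clone. The labels do not say whether the 2 libraries of a group came from separate cultures, so p-values measure the spread between such libraries only. That spread was estimated over all 12 libraries, those of clone 1 and of 3D included.

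Etv4 belongs with Etv1 and Etv5 to the PEA3 group of ETS transcription factors, which bind DNA at GGAA cores and are switched on by receptor tyrosine kinases through ERK. In mammary tumours these factors are known for genes of matrix proteases and of invasive growth, and the ERK pathway also induces its own inhibitors, the Sprouty, Spred and Dusp proteins. Small insertions or deletions left by Cas9 can abolish a protein while leaving the RNA of its gene in place, so the count over a whole gene does not measure the edit itself.

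The targeted gene was measured first. Etv4 (ENSMUSG00000017724.14, chromosome 11, 101769742 to 101785371, minus strand, mm10) had 49.3 and 46 CPM in clone 2, against 78.1 and 76 CPM in control. The groups did not overlap, and Etv4 was 1.61-fold lower in clone 2 (log2 fold change -0.69 ± 0.07, adjusted p = 2.23e-08). Its RNA was thus still present in both clone 2 libraries. Etv1, another PEA3 factor, was higher in clone 2, with 31.6 and 32.3 CPM in clone 2, against 23.7 and 21.3 CPM in control (log2 fold change 0.50 ± 0.09, adjusted p = 5.98e-05). Etv5, the third of the group, had 45.6 and 45.3 CPM in clone 2, against 44.7 and 44.8 CPM in control and did not pass the test (log2 fold change 0.02 ± 0.08, adjusted p = 0.876). Per kb of exon, clone 2 had 15.3 CPM of Etv4, 11.1 of Etv5 and 2.40 of Etv1, against 24.8, 10.9 and 1.69 CPM per kb in control, so Etv4 had the highest and Etv1 the lowest level of the 3 in both groups. CPM are counts per 1000000 counts of the library, with library sizes scaled by TMM, and M stands for 1000000.

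The clone 2 libraries held 18.7 and 14.4 M counts over 13875 and 13631 genes, against 13.9 and 14.4 M counts over 13699 and 13819 genes in control. Mitochondrial genes took 0.366 and 0.314% of the counts in clone 2, against 0.437 and 0.457% in control. In a principal component analysis of the 2D libraries, the second component, with 27.9% of the variance, separated clone 2 from control, and the first, with 50.4%, set clone 1 apart from both. Epcam, Krt8, Krt18 and Krt19, markers of luminal mammary carcinoma cells, were well expressed in both groups, while Pgr was at 0 counts in all 4 libraries and Esr1 had 346 counts in clone 2 and 381 in control. Of 10 leukocyte markers 4 were at 0 in all 4 libraries (among them Adgre1, Itgam and Cd3e), as were 4 of 8 fibroblast markers (Pdgfrb, Dcn, Lum and Thy1) and 3 of 7 endothelial markers (Kdr, Emcn and Tek). The summed level of the leukocyte markers was 3.25 and 3.13 CPM in clone 2, against 3.98 and 5.53 CPM in control. That of the endothelial markers was 10.1 and 8.68 CPM in clone 2, against 14.9 and 12.4 CPM in control. Most endothelial counts were of Egfl7, with 287 in clone 2 and 391 in control. Pecam1 had 17 and 3, Vwf 2 and 0, and Cdh5 3 and 3. The fibroblast markers summed to 5.15 and 4.62 CPM in clone 2, against 4.68 and 4.45 CPM in control. In bulk RNA, fewer cells of a type and less RNA per cell cannot be told apart.

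On plastic, 4661 of the 13763 genes (33.9%) differed between clone 2 and control at an adjusted p under 0.05. The calls numbered 2596 higher in clone 2 (18.9%) and 2065 lower (15%). In the 2D table alone the balance turned, with 1534 higher and 1654 lower, as it did without Gm26917 and Gm42418, with 2242 higher and 2324 lower. Most differences were small: the median size of a called difference was 0.40 on the log2 scale. Calls of at least 2-fold numbered 216 higher (1.57%) and 441 lower (3.2%), and of these only 29 and 81 had a mean of at least 5 CPM over the 4 libraries. Among better measured genes, differences of this size were thus more often falls than rises.

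The spread between replicates was larger in the 2D than in the 3D table, with biological coefficients of variation of 6.79% and 2.74% in each alone. The fit of all 12 libraries, which gave the p-values, had 4.51%, below that of the 2D table. The 2D table fitted alone called 1534 genes higher in clone 2 (13.2% of 11619 tested) and 1654 lower (14.2%). Of the 4661 genes called in the joint fit, 3167 were also called there in the same direction. For the calls of at least 2-fold this held for 361 of 657. All 30 genes described next passed the threshold in both fits.

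**Figure D1:**
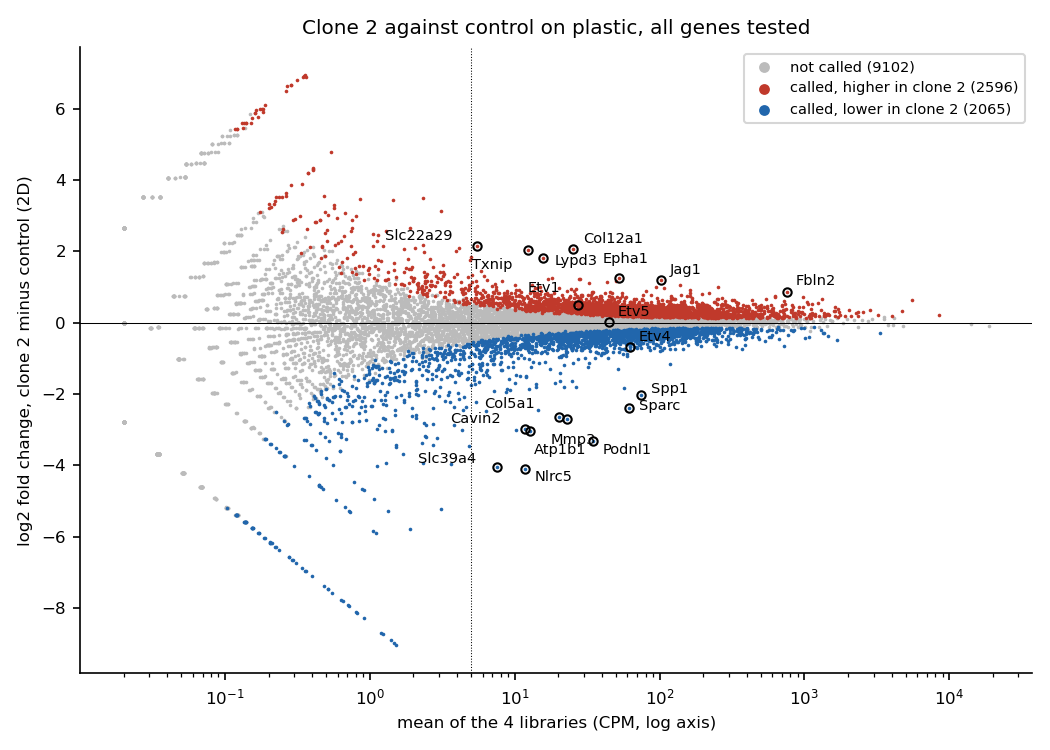
Log2 fold change of clone 2 against control in 2D (vertical axis) against the mean CPM of the 4 libraries (horizontal, log axis) for the 13763 genes tested. Red points are the 2596 genes called higher in clone 2 and blue points the 2065 called lower, circled genes are named in the text, and the dotted line marks 5 CPM. To the right of that line the largest differences are below 0, among them Nlrc5 at -4.10 and Slc39a4 at -4.05, while the largest above 0 is Slc22a29 at 2.15.

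The 15 genes with the largest fall in clone 2 among genes with a mean of at least 5 CPM included 3 that were nearly lost. Nlrc5, which drives transcription of MHC class I genes, had 1.46 and 1.07 CPM in clone 2, against 22.1 and 22.3 CPM in control. It was 17.1-fold lower in clone 2 (log2 fold change -4.10 ± 0.19, adjusted p = 1.85e-14). Slc39a4, a zinc importer of the plasma membrane, had 1.30 and 0.284 CPM in clone 2, against 14.5 and 14.1 CPM in control, a 16.6-fold difference (log2 fold change -4.05 ± 0.28, adjusted p = 4.82e-11). The clone 2 libraries themselves were unequal for Slc39a4, and both were far below control. Podnl1, a small leucine-rich proteoglycan of the matrix, had 7.05 and 5.26 CPM in clone 2, against 65.3 and 60.2 CPM in control and was 10.03-fold lower (log2 fold change -3.33 ± 0.14, adjusted p = 2.58e-15). By the same rule turned round, a clone 2 mean of at least 5 CPM and at least 10 times the control mean, no gene was gained.

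Of the other 12 leading falls, 5 were in genes of the matrix. Mmp3, stromelysin 1, had 6.83 and 5.33 CPM in clone 2, against 39.3 and 40.5 CPM in control (log2 fold change -2.69 ± 0.12, adjusted p = 4.34e-15). Col5a1, a chain of the fibrillar collagen V, had 5.15 and 6.12 CPM in clone 2, against 35.5 and 33.9 CPM in control (log2 fold change -2.64 ± 0.12, adjusted p = 1.85e-14). Sparc, a collagen-binding matricellular protein, had 19 and 20.3 CPM in clone 2, against 105 and 102 CPM in control (log2 fold change -2.40 ± 0.08, adjusted p = 5.02e-18). Pcolce, which enhances the processing of procollagens, had 5.26 and 3.56 CPM in clone 2, against 21.6 and 27.2 CPM in control (log2 fold change -2.44 ± 0.15, adjusted p = 6.84e-12). Spp1, osteopontin, had 27.3 and 31.6 CPM in clone 2, against 120.2 and 119 CPM in control (log2 fold change -2.03 ± 0.07, adjusted p = 1.46e-17), and 18.8% of its exon length is shared with a predicted gene on the same strand. In each of these genes, chosen for large falls, both clone 2 libraries were below both control libraries. Over all genes tested the groups did not overlap in 57.6%.

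Atp1b1, Fam129a and Cavin2, all on chromosome 1, fell in clone 2. Atp1b1, the beta 1 subunit of the sodium pump, had 2.98 and 2.56 CPM in clone 2, against 22.3 and 23.3 CPM in control (log2 fold change -3.02 ± 0.19, adjusted p = 5.17e-12). Fam129a, also called Niban, had 2.60 and 1.78 CPM in clone 2, against 19.6 and 16.7 CPM in control (log2 fold change -3.02 ± 0.20, adjusted p = 1.36e-11), and Cavin2, a coat protein of caveolae, had 3.25 and 1.92 CPM in clone 2, against 22.4 and 19.8 CPM in control (log2 fold change -2.98 ± 0.17, adjusted p = 1.73e-12). They were between 7.87 and 8.14-fold lower in clone 2. Exon sequence of Atp1b1 overlaps Nme7 on the opposite strand over 18.7% of its length, so its reads are uncertain if strand was not used in counting.

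The remaining leading falls were in Spn, Amigo2, Rcor2 and Bsn. Spn, the sialomucin CD43 of leukocytes, had 2.28 and 1.49 CPM in clone 2, against 9.86 and 11.8 CPM in control (log2 fold change -2.49 ± 0.24, adjusted p = 1.66e-08). Of the 10 leukocyte markers, 4 were at 0 in all 4 libraries, and the summed level of the list given above was lower in clone 2 too. Ptprc had 4 counts in clone 2 and 7 in control, Csf1r 31 in clone 2 and 20 in control, and Cd68 68 in clone 2 and 110 in control, the last called lower. The part of such cells in the fall of Spn was not tested. Amigo2, a leucine-rich repeat adhesion protein, had 2.12 and 1.71 CPM in clone 2, against 8.95 and 8.97 CPM in control (log2 fold change -2.21 ± 0.22, adjusted p = 3.33e-08). Rcor2, a CoREST corepressor, had 3.36 and 3.77 CPM in clone 2, against 15.1 and 12.4 CPM in control (log2 fold change -1.95 ± 0.19, adjusted p = 2.06e-08), and Bsn, known as a scaffold of presynaptic terminals, had 3.20 and 2.77 CPM in clone 2, against 10.3 and 12.6 CPM in control (log2 fold change -1.93 ± 0.20, adjusted p = 3.86e-08).

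The 15 leading rises were smaller, between 2.27 and 4.43-fold. Slc22a29, an organic anion transporter, had 10.3 and 7.54 CPM in clone 2, against 2.24 and 1.82 CPM in control (log2 fold change 2.15 ± 0.22, adjusted p = 5.38e-08), and it belongs to a cluster of similar genes among which reads may be shared. Col12a1, a collagen that associates with fibrils, had 38.2 and 43.4 CPM in clone 2, against 8.18 and 11.3 CPM in control (log2 fold change 2.06 ± 0.15, adjusted p = 8.02e-11). Txnip, the thioredoxin-interacting arrestin-like protein, had 17.9 and 22 CPM in clone 2, against 4.89 and 4.72 CPM in control (log2 fold change 2.04 ± 0.15, adjusted p = 1.74e-10), with 19.4% of its exon length overlapped by a predicted gene on the opposite strand. Lypd3, a GPI-anchored surface protein of the Ly6 and uPAR family, had 25 and 23.4 CPM in clone 2, against 7.48 and 6.41 CPM in control (log2 fold change 1.80 ± 0.13, adjusted p = 1.45e-10). These 4 genes were at least 3.49-fold higher and no libraries of the groups overlapped, as in 57.6% of all genes tested.

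Among the other leading rises were receptors, ligands and regulators of transcription. Epha1, an ephrin receptor, had 74.1 and 74.4 CPM in clone 2, against 29.5 and 32.6 CPM in control (log2 fold change 1.26 ± 0.08, adjusted p = 1.38e-11). Jag1, a Notch ligand, had 138 and 148 CPM in clone 2, against 57.5 and 67.7 CPM in control (log2 fold change 1.19 ± 0.07, adjusted p = 2.64e-12). Id1, an inhibitor of basic helix-loop-helix factors, had 35.6 and 43 CPM in clone 2, against 16.1 and 17.5 CPM in control (log2 fold change 1.22 ± 0.11, adjusted p = 1.1e-08). Vdr, the vitamin D receptor, had 9.0 and 8.82 CPM in clone 2, against 5.03 and 2.77 CPM in control (log2 fold change 1.20 ± 0.19, adjusted p = 2.71e-05), with control libraries that differed more from each other than the clone 2 libraries did.

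Further rises of this size were seen in genes of diverse roles. Arhgdib, a GDP dissociation inhibitor of small GTPases, was 2.74-fold higher, Irak2, a kinase of interleukin 1 and Toll-like receptor signalling, 2.54-fold, and Map6, a microtubule stabiliser, 2.32-fold. Mest, an imprinted gene, was 2.35-fold higher, and the triokinase gene Tkfc 2.27-fold. Zfp575, a zinc finger gene, and Grcc10, a small gene of a gene-rich cluster, were 2.37 and 2.49-fold higher. Exon overlap with other genes reached 23.3% in Grcc10, 23.1% in Mest and 20.01% in Tkfc. The groups did not overlap in any of the 30 leading genes, nor in 57.6% of all genes tested.

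**Figure D2:**
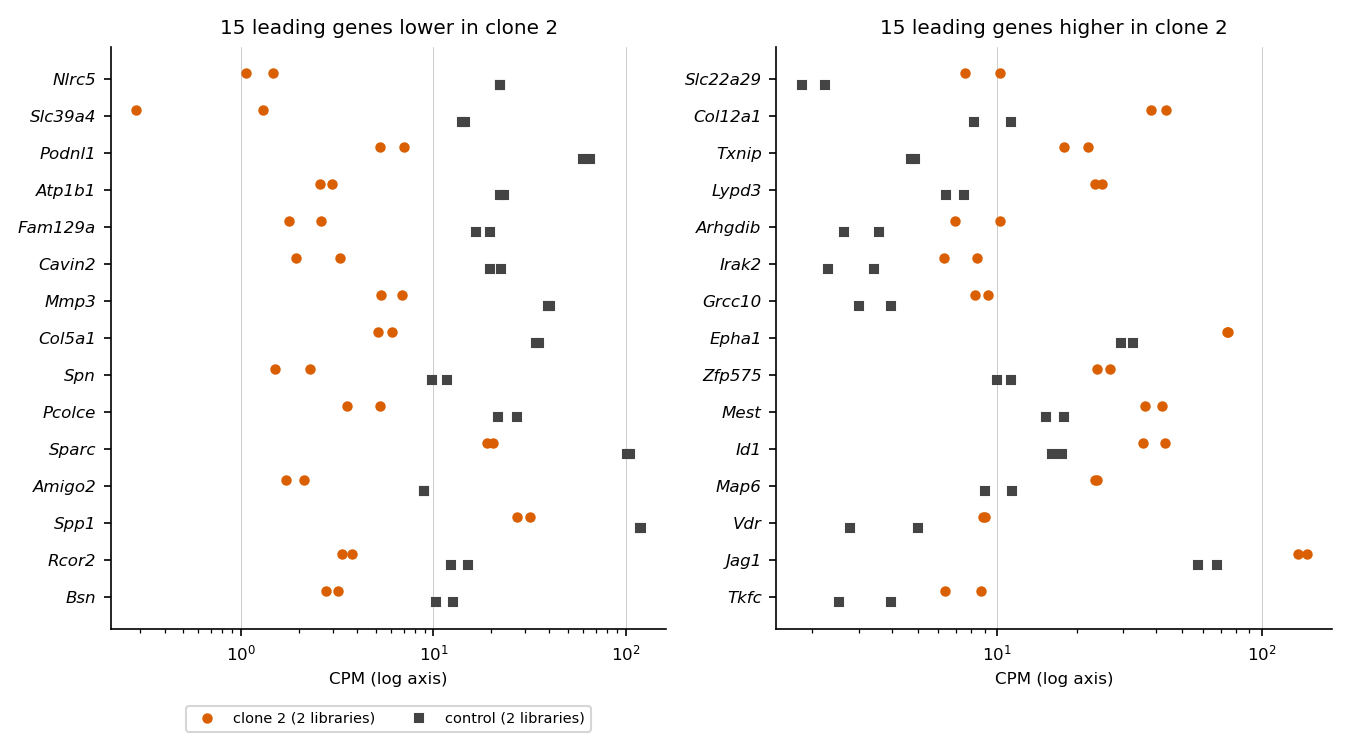
CPM (log axis) of the 15 leading genes lower in clone 2 (left) and the 15 higher (right), with 1 point per library, orange circles for clone 2 and grey squares for control. In all 30 genes the 2 clone 2 points lie on the same side of the 2 control points, and the widest gaps are those of Nlrc5, Slc39a4 and Podnl1.

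Start sites of the leading genes were looked up because they moved most. RefSeq windows of 250 bases before to 50 after the start (GRCm38.p6) existed for 22 of the 30 genes, and those of the highest ranking with an entry are printed 5′ to 3′ on the gene's strand, lower case, with matches to 3 motifs in capitals. The motifs, searched on both strands, were CCGGAAG (ETS), AGGAAGT (named the PEA3 form of the ETS motif) and TGANTCA (AP-1). Both of the first 2 are ETS motifs, and neither is particular to Etv4. The first 2 share the letters GGAAG, and the base before these differs, so a site on 1 strand cannot match both. Of all 27025 genes with a window, 9.121% held CCGGAAG, 9.573% AGGAAGT and 7.933% TGANTCA. Of the 10142 tested genes with a window, 73.69% of all tested, 18.18% held CCGGAAG, 8.775% AGGAAGT and 5.236% TGANTCA. The windows of 2 genes that fell are those of Atp1b1 (chr1:164458306-164458605, minus strand) and Cavin2 (chr1:51288876-51289175, plus strand), and those of 2 genes that rose are Slc22a29 (chr19:8218851-8219150, minus strand) and Txnip (chr3:96557707-96558006, plus strand).
Atp1b1: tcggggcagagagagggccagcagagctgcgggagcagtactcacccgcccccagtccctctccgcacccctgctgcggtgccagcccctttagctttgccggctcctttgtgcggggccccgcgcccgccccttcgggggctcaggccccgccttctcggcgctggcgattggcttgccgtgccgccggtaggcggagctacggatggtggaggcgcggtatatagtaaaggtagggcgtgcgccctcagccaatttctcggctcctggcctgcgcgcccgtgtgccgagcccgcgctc
Cavin2: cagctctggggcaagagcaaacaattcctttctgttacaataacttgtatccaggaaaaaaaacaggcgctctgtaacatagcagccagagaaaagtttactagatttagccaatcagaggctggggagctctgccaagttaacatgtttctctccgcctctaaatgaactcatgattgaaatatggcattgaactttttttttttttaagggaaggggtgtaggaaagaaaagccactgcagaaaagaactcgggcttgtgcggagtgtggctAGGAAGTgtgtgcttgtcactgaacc
Slc22a29: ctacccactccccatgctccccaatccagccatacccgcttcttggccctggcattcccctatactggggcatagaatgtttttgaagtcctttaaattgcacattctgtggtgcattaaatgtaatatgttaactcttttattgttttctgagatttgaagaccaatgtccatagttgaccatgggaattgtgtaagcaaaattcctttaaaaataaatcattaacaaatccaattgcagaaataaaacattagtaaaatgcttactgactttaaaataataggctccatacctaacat
Txnip: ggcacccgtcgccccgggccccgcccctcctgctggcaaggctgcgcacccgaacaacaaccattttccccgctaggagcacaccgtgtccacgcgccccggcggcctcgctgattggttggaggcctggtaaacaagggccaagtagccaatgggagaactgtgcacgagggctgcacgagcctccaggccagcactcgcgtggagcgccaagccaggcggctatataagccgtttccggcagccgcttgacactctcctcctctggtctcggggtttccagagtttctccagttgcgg
The Cavin2 window held 1 AGGAAGT, and the other 3 windows held none of the motifs. Among the 22 windows, AGGAAGT was also found in Spn and Spp1, CCGGAAG in Spp1 and TGANTCA in Mmp3. A match is a description of letters and no evidence of binding.

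Abundant genes were also looked at, whatever their rank by size of change. Of 2344 genes with a mean of at least 100 CPM, 882 were called higher in clone 2 and 432 lower, against 18.9% higher and 15% lower over all genes tested. In the 2D table alone 627 were higher and 446 lower, and with chromosomes centred 635 and 347, counts added after the values were seen. The 8 with the largest change each way, a choice made after the values were seen, were led on the higher side by Jag1 and by Bdkrb2, the bradykinin B2 receptor, with 189 and 185 CPM in clone 2, against 94.2 and 83.4 CPM in control (log2 fold change 1.07 ± 0.06, adjusted p = 2.65e-12). Has2, which makes hyaluronan, had 331 and 339 CPM in clone 2, against 161 and 175 CPM in control (log2 fold change 1.00 ± 0.05, adjusted p = 4.53e-13). Fbln2, a matrix glycoprotein, was the most abundant of them, with 979 and 994 CPM in clone 2, against 525 and 554 CPM in control (log2 fold change 0.87 ± 0.05, adjusted p = 1.74e-12). Sfn, the 14-3-3 sigma protein of epithelia, Ulbp1, a ligand of the NKG2D receptor, Lama3, a chain of laminin 332, and the tetraspanin Cd9 were higher by 0.97, 0.92, 0.82 and 0.82 on the log2 scale.

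The abundant genes that fell most were Bpnt1, a nucleotidase, with 76.8 and 71.8 CPM in clone 2, against 127 and 129 CPM in control (log2 fold change -0.78 ± 0.06, adjusted p = 8.31e-10), and Col7a1, the collagen of anchoring fibrils, with 84.1 and 68.8 CPM in clone 2, against 129 and 133 CPM in control (log2 fold change -0.77 ± 0.08, adjusted p = 7.68e-08). Prdx6, a peroxiredoxin, had 301 and 260.1 CPM in clone 2, against 470.2 and 464 CPM in control (log2 fold change -0.73 ± 0.06, adjusted p = 6.62e-10). The nuclear long noncoding RNA Neat1 had 115 and 78.6 CPM in clone 2, against 168 and 154 CPM in control (log2 fold change -0.72 ± 0.14, adjusted p = 0.000173), with unequal clone 2 libraries. Pogk, Dgkd, Ppp2r5a and Adrm1 lay at -0.73, -0.73, -0.72 and -0.67, all called. Of these 8 genes, Bpnt1, Prdx6, Pogk, Dgkd and Ppp2r5a lie on chromosome 1. Centred on their chromosome's median, these 5 lay between -0.49 and -0.42, with Neat1 at -0.79, Col7a1 at -0.72 and Adrm1 at -0.70. The median of chromosome 1, -0.29, comes from these same data, so centring shrinks falls there by construction.

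Gene lists were then counted against the shares over all genes tested, 18.9% higher and 15% lower, with a median log2 fold change of 0.02. Restricting the fit to genes free of exon overlap tests fewer members and lowered many of these counts, for example to 8 hypoxia and glycolysis genes higher, and 6 MHC class I genes, 6 fatty acid genes and 4 cholesterol genes lower. Among 18 PEA3 factors and members of ERK feedback, 4 were higher and 6 lower in clone 2 (median -0.11). The ERK phosphatase gene Dusp6 rose, with 189 and 184 CPM in clone 2, against 139.9 and 139 CPM in control (log2 fold change 0.42 ± 0.05, adjusted p = 1.53e-06), and Spry2 rose as well (log2 fold change 0.48 ± 0.08, adjusted p = 5.11e-05). Fosl1, the AP-1 subunit FRA1, fell, with 26.7 and 27.7 CPM in clone 2, against 40.2 and 37.8 CPM in control (log2 fold change -0.52 ± 0.09, adjusted p = 4.03e-05), and 57.2% of its exon length is overlapped by Ccdc85b on the opposite strand. Spred2 and Spred3, inhibitors of the same pathway, were lower, at -0.59 and -0.82 on the log2 scale. Spry1, Spry4, Spred1, Egr1 and Myc did not pass the test, at -0.13, -0.14, -0.14, 0.23 and -0.04. Members thus moved both ways, and without overlapping genes 3 were lower.

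Of 24 matrix proteases and inhibitors tested, 11 were lower and 6 higher (median -0.40). Besides Mmp3, the gelatinase gene Mmp9 fell, with 26.1 and 21.2 CPM in clone 2, against 44.6 and 50.9 CPM in control (log2 fold change -1.0 ± 0.10, adjusted p = 2.53e-08), and Mmp10, stromelysin 2, with 2.93 and 2.20 CPM in clone 2, against 9.23 and 6.75 CPM in control (log2 fold change -1.61 ± 0.21, adjusted p = 1.43e-06). Ctsl, cathepsin L and the most abundant of those that fell, had 595 and 538 CPM in clone 2, against 919.8 and 852 CPM in control (log2 fold change -0.64 ± 0.06, adjusted p = 3.35e-09). The plasminogen activators Plau and Plat were lower, at -0.39 and -0.95, and Adam8 lay at -0.90. Serpine2, an inhibitor of thrombin and urokinase, had 1 count in clone 2 and 63 in control, 73.7-fold lower with a 95% counting interval of 12.8 to 2958.

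The protease genes that rose included Mmp11, stromelysin 3, at 0.64, and Mmp14, a membrane-bound collagenase, at 0.33. Timp1 and Timp2, tissue inhibitors of metalloproteinases, did not pass the test, at 0.09 and -0.02. Mmp15 and Mmp13 were called lower at few counts, 90 in clone 2 and 163 in control for Mmp15, and 2 and 11 for Mmp13. These 2 calls were lost without single libraries, Mmp15 without control replicate 1 (adjusted p = 0.0655), and Mmp13 without several, such as clone 2 replicate 1 or control replicate 2 (adjusted p = 0.345 and 0.223). With chromosomes centred 3 members were higher.

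Matrix components split into strong falls and mostly mild rises, with 9 of 25 higher and 11 lower (median 0.02). Beside Sparc, Spp1, Podnl1 and Col5a1, the collagen VI chains fell: Col6a1 had 1.14 and 0.640 CPM in clone 2, against 7.97 and 5.60 CPM in control (log2 fold change -2.87 ± 0.29, adjusted p = 3.97e-08), and Col6a2 had 2 counts in clone 2 and 19 in control. Fbln1, fibulin 1, had no count in clone 2 and 28 in control, at least 10.9-fold lower over a floor of 3 counts for the group. Nid1, nidogen 1, had 3 counts in clone 2 and 18 in control, and its call was lost in the 2D table alone (adjusted p = 0.0668), without control replicate 2 (adjusted p = 0.269) and without either clone 2 library (adjusted p = 0.0899 and 0.102). The laminin chains Lama5 and Lamc1 fell by 0.46 and 0.48. On the higher side, next to Col12a1, Fbln2 and Lama3, stood Col18a1 at 0.37, agrin (Agrn) at 0.34 and Thbs1, thrombospondin 1, at 0.27. Fibronectin (Fn1), tenascin C (Tnc) and periostin (Postn) did not pass the test, at 0.10, 0.27 and 0.53.

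Receptors for the matrix moved little. Of 12 integrin chains 3 were higher and none was lower, although 1 was called lower in the 2D table alone and 2 without control replicate 1. Itgb6, the beta chain of the epithelial integrin that activates TGF-beta, had 52.1 and 54.9 CPM in clone 2, against 29.6 and 30.8 CPM in control (log2 fold change 0.83 ± 0.10, adjusted p = 2.64e-07). Itga2, the alpha chain of a collagen receptor, and Itgb1, its partner, were higher by 0.48 and 0.34, the second at 1720.0 and 1878 CPM in clone 2, against 1356 and 1495 CPM in control.

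Epithelial and mesenchymal genes did not separate by direction. Of 26 genes of epithelial junctions and keratins, 11 were higher and 7 lower (median 0.11), and of 14 mesenchymal genes 2 were higher and 3 lower (median 0.07). Pkp3, a plakophilin of desmosomes, had 107 and 104 CPM in clone 2, against 59.6 and 54.3 CPM in control (log2 fold change 0.89 ± 0.07, adjusted p = 2.44e-10), and the splicing factor gene Esrp1 had 122 and 116 CPM in clone 2, against 69.9 and 78.6 CPM in control (log2 fold change 0.68 ± 0.06, adjusted p = 6.41e-09). Epcam and the keratins Krt8, Krt18 and Krt19 were higher, by 0.51, 0.33, 0.21 and 0.65. Krt14, a basal keratin, fell, with 41.4 and 41 CPM in clone 2, against 78.6 and 77.6 CPM in control (log2 fold change -0.92 ± 0.09, adjusted p = 9.64e-09), as did Dsc2 and Cldn7, at -1.50 and -0.54. E-cadherin (Cdh1) lay at 0.05 and was not called.

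Of the mesenchymal genes, Vim, vimentin, had 1265 and 1297 CPM in clone 2, against 1612 and 1671 CPM in control (log2 fold change -0.36 ± 0.05, adjusted p = 3e-06), and Zeb2, a repressor of epithelial genes, had 24.3 and 23.9 CPM in clone 2, against 36.8 and 46.6 CPM in control (log2 fold change -0.79 ± 0.10, adjusted p = 7.73e-07). S100a4 fell by 0.48, with 51.7% of its exon length overlapped by a predicted gene. Lgals1, galectin 1, was higher and among the most abundant genes, with 5162 and 5398 CPM in clone 2, against 4409 and 3992 CPM in control (log2 fold change 0.33 ± 0.05, adjusted p = 3.15e-05). Zeb1, Snai1 and Twist1 did not pass the test, at 0.39, 0.70 and -0.11. Without control replicate 1, 1 mesenchymal gene was higher.

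Antigen presentation through MHC class I moved mainly downwards, with 11 of 20 genes lower and 2 higher (median -0.46). Beside Nlrc5, the light chain gene B2m fell, with 190.2 and 198 CPM in clone 2, against 275 and 269 CPM in control (log2 fold change -0.49 ± 0.05, adjusted p = 1.71e-07). Psmb8, a subunit of the immunoproteasome, had 11 and 9.32 CPM in clone 2, against 23.6 and 20.5 CPM in control (log2 fold change -1.11 ± 0.17, adjusted p = 1.57e-05), and Tap2, of the peptide transporter, was lower, at -0.61. The heavy chain genes H2-D1, H2-K1 and H2-Q4 were lower, at -0.49, -0.43 and -0.63; these genes resemble each other closely, so the split of reads between them is uncertain. H2-Q7 had 23 counts in clone 2 and 64 in control, and its call was lost without clone 2 replicate 1 (adjusted p = 0.0719). Psme2 and Pdia3 were the 2 that rose, at 0.27 and 0.36, while Tap1, Psmb9 and Calr did not pass the test, at -0.48, -0.71 and 0.10. The summed level of leukocyte markers given above was lower in clone 2 too, with 4 of 10 markers at 0 in all libraries, and its part in these falls was not tested.

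Interferon response genes moved less uniformly, with 5 of 38 higher and 9 lower (median -0.05). Ifih1, the RNA sensor MDA5, had 25.9 and 30.9 CPM in clone 2, against 18 and 18.4 CPM in control (log2 fold change 0.63 ± 0.12, adjusted p = 0.000123), and Irgm1, an immunity-related GTPase, was higher by 0.60. Oas1a, an oligoadenylate synthetase, had 18 counts in clone 2 and 104 in control (log2 fold change -2.68 ± 0.44, adjusted p = 3.39e-05), and Sp100, of nuclear bodies, was lower, at -1.15. Bst2 and Ifit2 fell by 0.57 and 0.74. Usp18, Oasl2 and Ifit1 had few counts, and their calls were lost in the 2D table alone (adjusted p = 0.0751, 0.143 and 0.187). Without clone 2 replicate 1 all 3 calls were lost too (adjusted p = 0.249, 0.293 and 0.131), as was Usp18 without control replicate 2 (adjusted p = 0.11) and Oasl2 without control replicate 1 (adjusted p = 0.0696). Ifit1, at adjusted p = 0.0497, lost its call in 14 settings, DESeq2 and the removal of any 1 of the clone 2 or control libraries in 2D among them. Irf1 and Isg15, central members of the response, did not pass the test, at 0.12 and -0.06. The 2D table alone gave 3 genes higher and 5 lower. Leaving out control replicate 1 left 4 genes lower, leaving out clone 2 replicate 1 left 5 lower, and leaving out control replicate 2 left 3 higher. With chromosomes centred 8 were higher.

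Among 27 NF-kB targets, chemokines and cytokines, 5 were higher and 9 lower (median -0.14). Among the neutrophil chemokines 3 fell. Cxcl5 had 30.9 and 26.9 CPM in clone 2, against 56.2 and 48.5 CPM in control (log2 fold change -0.85 ± 0.09, adjusted p = 7.68e-08), and Cxcl3 had 1.57 and 1.42 CPM in clone 2, against 10.0 and 5.53 CPM in control (log2 fold change -2.36 ± 0.32, adjusted p = 3.04e-06). Cxcl2 had no count in clone 2 and 10 in control, at least 3.90-fold lower, and its call was lost without either clone 2 library (adjusted p = 0.0784 and 0.0526). Cxcl1, of the same family, lay at 0.17 and was not called. The inhibitor gene Nfkbia rose, with 61.7 and 71.1 CPM in clone 2, against 38 and 43 CPM in control (log2 fold change 0.71 ± 0.08, adjusted p = 1.22e-07). Il23a, a subunit of interleukin 23, had 55.5 and 55.6 CPM in clone 2, against 38.2 and 37 CPM in control (log2 fold change 0.56 ± 0.08, adjusted p = 9.1e-06), and Il1a, interleukin 1 alpha, was higher by 1.26. Csf2, GM-CSF, had 24 counts in clone 2 and 1 in control, 20.5-fold higher with a 95% counting interval of 3.34 to 843.

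**Figure D3:**
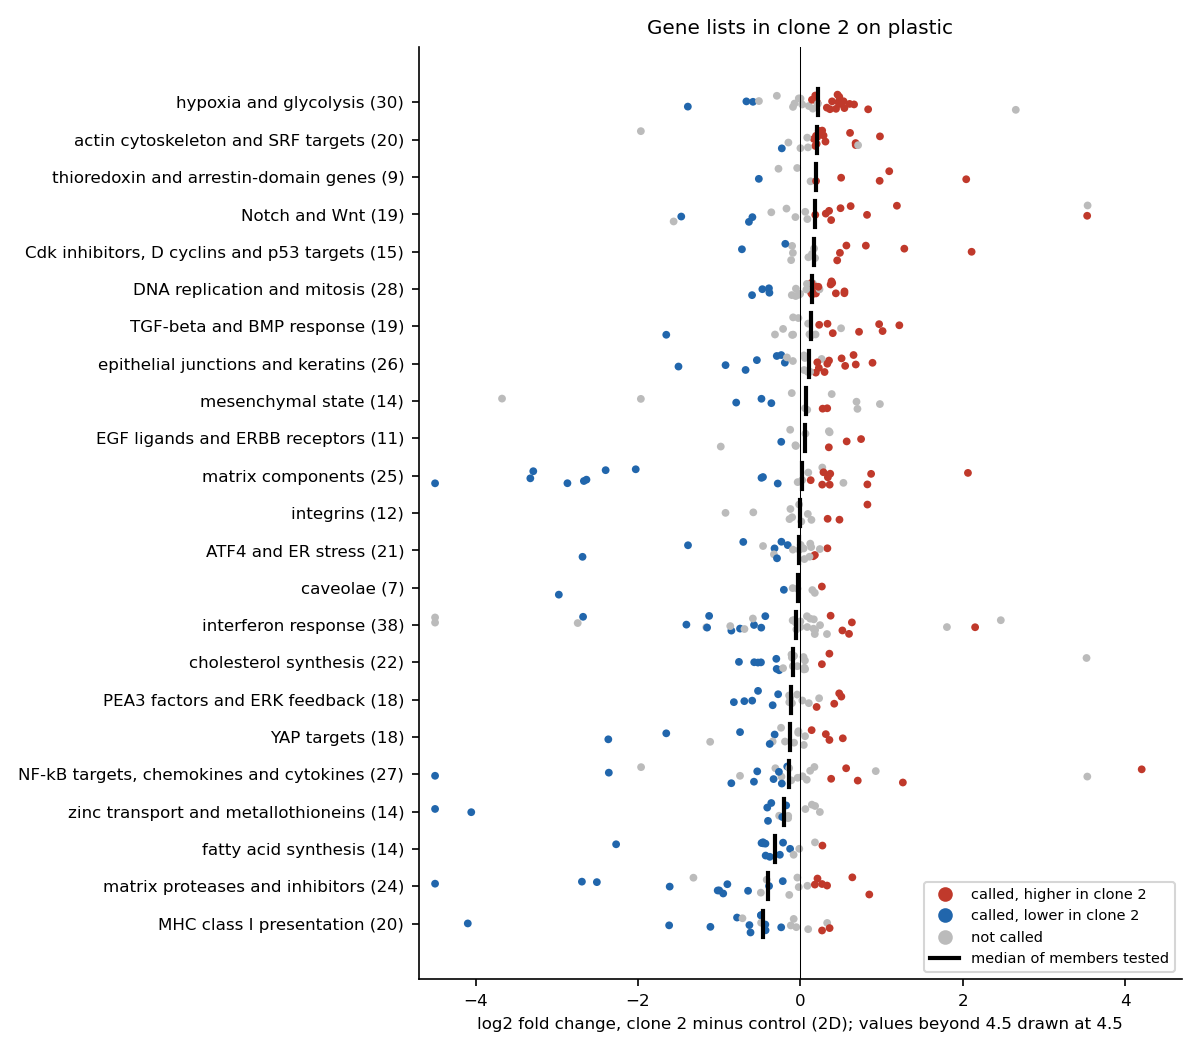
Log2 fold change of clone 2 against control in 2D (horizontal axis) for the tested members of each gene list, with 1 point per gene, red where called higher, blue where called lower and grey where not called, and a black bar at the list's median. Lists are ordered by median, from hypoxia and glycolysis at 0.21 at the top to MHC class I presentation at -0.46 at the bottom, and values beyond 4.5 are drawn at 4.5.

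Hypoxia and glycolysis genes had a median of 0.21, with 16 of 30 higher and 3 lower. Of the 16 rises, 10 were in glycolytic enzymes. Tpi1, triosephosphate isomerase, had 855 and 903 CPM in clone 2, against 588 and 567 CPM in control (log2 fold change 0.61 ± 0.05, adjusted p = 4.22e-09), Ldha, lactate dehydrogenase A, had 1411 and 1514 CPM in clone 2, against 1017 and 991 CPM in control (log2 fold change 0.54 ± 0.05, adjusted p = 2.9e-08), and Eno1, enolase 1, had 1275 and 1390.2 CPM in clone 2, against 892 and 951 CPM in control (log2 fold change 0.53 ± 0.06, adjusted p = 8.71e-08). Pgk1, Aldoa and Pfkl were higher by 0.48, 0.44 and 0.47. Pdk1, the kinase that inhibits pyruvate dehydrogenase, had 77.6 and 86.3 CPM in clone 2, against 49.5 and 53.9 CPM in control (log2 fold change 0.66 ± 0.07, adjusted p = 1.4e-07), and the mitophagy receptor gene Bnip3 was higher by 0.83. Aldoc, another aldolase, and Vegfa, the angiogenic growth factor, were the largest falls, at -1.39 and -0.67. The glucose transporter Slc2a1 and hexokinase 2 (Hk2) lay at -0.07 and 0.00 and were not called. With each chromosome centred on its median, the list's median was 0.07, below those of the Cdk inhibitor list at 0.27, the actin list at 0.23 and the thioredoxin list at 0.18.

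Fatty acid synthesis genes were mostly lower, with 10 of 14 genes lower and 1 higher (median -0.32). Scd2 and Scd1, desaturases, fell, Scd2 with 1426 and 1380.0 CPM in clone 2, against 1942 and 1968 CPM in control (log2 fold change -0.48 ± 0.05, adjusted p = 2.82e-08), and Scd1 with 87.3 and 81.3 CPM in clone 2, against 114 and 113 CPM in control (log2 fold change -0.43 ± 0.06, adjusted p = 4.38e-06). Fads1, a fatty acid desaturase, and Elovl5, an elongase, were lower, at -0.46 and -0.43. Fasn, fatty acid synthase, and Srebf1, the regulator of these genes, were lower, at -0.21 and -0.38. Acacb had 14 counts in clone 2 and 61 in control, and its call was lost without control replicate 2 (adjusted p = 0.119). Of 22 genes of cholesterol synthesis 7 were lower and 2 higher (median -0.10). Hsd17b7, of the later steps and on chromosome 1, had 64.9 and 61.9 CPM in clone 2, against 104 and 110.2 CPM in control (log2 fold change -0.76 ± 0.06, adjusted p = 1.8e-09), and Lss, lanosterol synthase, had 154 and 133 CPM in clone 2, against 222 and 206 CPM in control (log2 fold change -0.57 ± 0.07, adjusted p = 8.47e-07). Fdps and Mvd were lower, at -0.52 and -0.49. Without control replicate 1, 1 cholesterol gene was higher, and without control replicate 2 or clone 2 replicate 1 no fatty acid gene was.

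TGF-beta and BMP response genes gave 7 of 19 higher and 1 lower (median 0.13). The inhibitors of differentiation led them: after Id1, Id3 had 123 and 132 CPM in clone 2, against 63.1 and 63.1 CPM in control (log2 fold change 1.01 ± 0.06, adjusted p = 7.03e-12), and Id2 had 25.4 and 27.9 CPM in clone 2, against 15.3 and 11.9 CPM in control (log2 fold change 0.97 ± 0.11, adjusted p = 1.65e-07). Tgfb3, a ligand, had 32.3 and 35.1 CPM in clone 2, against 21 and 19.8 CPM in control (log2 fold change 0.72 ± 0.09, adjusted p = 9.73e-07), and its receptor gene Tgfbr1 was higher by 0.40. Tgfb2, another ligand and on chromosome 1, fell, with 2.17 and 1.49 CPM in clone 2, against 6.08 and 5.67 CPM in control (log2 fold change -1.65 ± 0.28, adjusted p = 5.77e-05). The feedback inhibitors Smad6 and Smad7 did not pass the test, at -0.03 and 0.09. Leaving out control replicate 1 or either clone 2 library made 2 genes lower.

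Actin cytoskeleton and SRF target genes were higher in 13 of 20 cases and lower in 1 (median 0.20). Cnn2, calponin 2, had 288 and 322 CPM in clone 2, against 196 and 185 CPM in control (log2 fold change 0.68 ± 0.06, adjusted p = 8.03e-09), Zyx, zyxin of focal adhesions, had 118 and 117 CPM in clone 2, against 72.1 and 81.3 CPM in control (log2 fold change 0.61 ± 0.07, adjusted p = 9.77e-08), and Actn4, alpha-actinin 4, had 138 and 157 CPM in clone 2, against 89 and 94.4 CPM in control (log2 fold change 0.68 ± 0.08, adjusted p = 7.42e-07). Flna, filamin A, had 2792 and 2829 CPM in clone 2, against 2212 and 2326 CPM in control (log2 fold change 0.31 ± 0.05, adjusted p = 2.28e-05). Cobl, an actin nucleator, was higher by 0.98, and Actb and Actg1, the cytoplasmic actins, by 0.21 and 0.20. Tagln2 was the fall, at -0.23, and Tagln and Tpm1 lay at 0.08 and 0.09 without passing the test. Without genes that overlap others in exons, 6 members were higher, and without control replicate 2, 2 were lower.

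YAP targets were divided, with 4 of 18 higher and 5 lower (median -0.13). Ankrd1, a standard YAP target, had 323 and 340.3 CPM in clone 2, against 218 and 243 CPM in control (log2 fold change 0.52 ± 0.06, adjusted p = 1.06e-07), and Ctgf was higher by 0.31, while Cyr61 lay at -0.03 and was not called. Ptpn14, itself an inhibitor of YAP and on chromosome 1, had 40.7 and 44.1 CPM in clone 2, against 69 and 72.6 CPM in control (log2 fold change -0.74 ± 0.07, adjusted p = 1.33e-08). Dlc1, a GTPase-activating protein, had 1.25 and 1.21 CPM in clone 2, against 4.05 and 8.63 CPM in control (log2 fold change -2.37 ± 0.33, adjusted p = 3.42e-06), with control libraries unlike each other, and Wwc1, KIBRA, was lower, at -0.38. Leaving out control replicate 1 left 2 members higher. Of 7 genes of caveolae, Cavin2 and Pacsin2 (-0.20) were lower and Ehd2 (0.26) higher. The call of Ehd2 was lost in the 2D table alone (adjusted p = 0.0548), and that of Pacsin2 without control replicate 1 or clone 2 replicate 1 (adjusted p = 0.106 and 0.0588). Both were lost with chromosomes centred (adjusted p = 0.116 and 0.0681). Without control replicate 2, 2 caveolae genes were higher. The caveolins themselves, Cav1 and Cav2, did not pass the test, at -0.04 and 0.15.

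Genes of DNA replication and mitosis rose slightly in the joint fit, with 14 of 28 higher and 4 lower (median 0.14), but 6 were higher and 4 lower in the 2D table alone. Rrm1, of ribonucleotide reductase, had 407 and 413 CPM in clone 2, against 275 and 288 CPM in control (log2 fold change 0.54 ± 0.06, adjusted p = 2.11e-07), and Cdk1, the mitotic kinase, had 547 and 550.4 CPM in clone 2, against 419.9 and 417 CPM in control (log2 fold change 0.39 ± 0.05, adjusted p = 9.47e-07). Mki67 and Ccne1 were higher by 0.44 and 0.54. Of the origin licensing genes, Mcm7 was higher, at 0.14, and 4 were lower. Cdt1 had 98.2 and 93 CPM in clone 2, against 149 and 139.8 CPM in control (log2 fold change -0.60 ± 0.06, adjusted p = 3.86e-08), Mcm3, on chromosome 1, had 238 and 245 CPM in clone 2, against 341 and 328 CPM in control (log2 fold change -0.47 ± 0.05, adjusted p = 1.11e-07), and Mcm6 and Cdc6 were lower, at -0.39 and -0.38. Without control replicate 2, clone 2 replicate 2, clone 1 replicate 2 in 3D or clone 2 replicate 1 in 3D, 8 or 9 members were higher, and DESeq2 gave 8.

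Cdk inhibitors, D cyclins and p53 targets gave 6 of 15 higher and 2 lower (median 0.17). Cdkn1a, p21, was low in both groups, with 2.55 and 4.20 CPM in clone 2, against 0.559 and 0.944 CPM in control (log2 fold change 2.11 ± 0.35, adjusted p = 4.12e-05). Cdkn2c, p18, had 230.5 and 236 CPM in clone 2, against 152 and 163 CPM in control (log2 fold change 0.57 ± 0.05, adjusted p = 1.19e-08), and Cdkn1b, p27, had 114 and 108 CPM in clone 2, against 78.5 and 84 CPM in control (log2 fold change 0.45 ± 0.06, adjusted p = 3.63e-06). Ccnd2, cyclin D2, was higher by 0.81. Trp53inp1 was called at 1.28, a call lost in the 2D table alone (adjusted p = 0.0655). Ccnd1, Bax and Trp53 did not pass the test, at -0.11, 0.14 and 0.10. No member was lower without control replicate 2 or clone 2 replicate 2, and 1 was without clone 2 replicate 1 or without any 1 of 5 libraries in 3D.

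Among 21 genes of ATF4 and endoplasmic reticulum stress, 3 were higher and 7 lower (median -0.01). Slc7a11, the cystine transporter, had 2.28 and 3.06 CPM in clone 2, against 6.50 and 7.22 CPM in control (log2 fold change -1.38 ± 0.21, adjusted p = 1.49e-05), and its partner chain Slc3a2 had 122 and 127 CPM in clone 2, against 94.2 and 103 CPM in control (log2 fold change 0.33 ± 0.06, adjusted p = 0.000171). Shmt2 and the chaperone-associated Sdf2l1 were lower, at -0.29 and -0.70. Vldlr had 4 counts in clone 2 and 24 in control, and its call was lost without control replicate 1 or clone 2 replicate 1 (adjusted p = 0.534 and 0.159). Atf4, Ddit3 and Hspa5 did not pass the test, at 0.00, 0.12 and 0.05. Without control replicate 1 or clone 2 replicate 1, 4 members were lower, and without the second of these 1 was higher.

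Zinc transporters and metallothioneins were lower in 7 of 14 cases and higher in none (median -0.20). Slc39a8, a zinc and manganese importer, had no count in clone 2 and 42 in control, at least 16.4-fold lower. Next to it and Slc39a4, falls were mild: Slc39a7, of the endoplasmic reticulum, had 105 and 112 CPM in clone 2, against 155 and 131 CPM in control (log2 fold change -0.40 ± 0.07, adjusted p = 7.07e-05), with 80.7% of its exon length shared with a predicted gene, and Mt1, metallothionein 1, was lower, at -0.36. Slc39a10, on chromosome 1, had 61.3 and 72.3 CPM in clone 2, against 85.1 and 91.5 CPM in control (log2 fold change -0.41 ± 0.08, adjusted p = 0.000194), and its call was lost once chromosomes were centred (adjusted p = 0.294). The exporter gene Slc30a1 and Mtf1, the zinc-sensing factor, did not pass the test, at -0.26 and 0.24. Leaving out control replicate 1 made 2 members higher, and leaving out control replicate 2 made 1 higher.

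Thioredoxin and arrestin-domain genes were higher in 5 of 9 cases and lower in 1 (median 0.19). After Txnip, Arrdc3, of the same arrestin family, had 20.9 and 15.6 CPM in clone 2, against 10.5 and 8.30 CPM in control (log2 fold change 0.98 ± 0.13, adjusted p = 2.94e-06), and Txn1, thioredoxin 1, had 682 and 702 CPM in clone 2, against 483 and 494 CPM in control (log2 fold change 0.50 ± 0.05, adjusted p = 2.34e-08). Arrdc4 and Txnrd1 were called at 1.09 and 0.19, and both calls were lost in the 2D table alone (adjusted p = 0.143 and 0.052). Arrdc4 was also lost without control replicate 2 (adjusted p = 0.162) and Txnrd1 with chromosomes centred (adjusted p = 0.594). No member was lower without control replicate 1 or clone 2 replicate 1, and 2 were without clone 2 replicate 2.

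Among EGF ligands and ERBB receptors, 3 of 11 were higher and 1 lower (median 0.06). Areg, amphiregulin, had 34 and 33.1 CPM in clone 2, against 20.9 and 19.1 CPM in control (log2 fold change 0.75 ± 0.08, adjusted p = 2.06e-07), Erbb3 had 38.6 and 37.5 CPM in clone 2, against 25.4 and 25.9 CPM in control (log2 fold change 0.57 ± 0.09, adjusted p = 1.36e-05), and Tgfa had 70.4 and 71.3 CPM in clone 2, against 56.6 and 54.6 CPM in control (log2 fold change 0.35 ± 0.06, adjusted p = 9.74e-05). Hbegf was lower, at -0.24, a call lost without control replicate 2 (adjusted p = 0.0688) or clone 2 replicate 1 (adjusted p = 0.0869), and Egfr and Erbb2 did not pass the test, at -0.13 and 0.06.

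Notch and Wnt genes gave 9 of 19 higher and 3 lower (median 0.18). With Jag1, the ligands Jag2 and Dll1 and the Notch target Hes1 were higher, by 0.35, 0.49 and 0.62. The receptor Notch1 fell, with 38.1 and 38.2 CPM in clone 2, against 56.4 and 58.5 CPM in control (log2 fold change -0.59 ± 0.08, adjusted p = 4.18e-06), while Notch2 was higher by 0.31. Wnt7a, an epithelial Wnt ligand, had 99.3 and 95.3 CPM in clone 2, against 72 and 77.8 CPM in control (log2 fold change 0.38 ± 0.06, adjusted p = 4.63e-05). Wnt10a and the receptor gene Fzd7, both on chromosome 1, were lower, at -1.47 and -0.63. Notch3 had 15 counts in clone 2 and 1 in control, nearly all in clone 2 replicate 1, and its call was lost without that library (adjusted p = 0.795) and without control replicate 2 (adjusted p = 0.137). Without clone 2 replicate 1, 5 members were higher. The remaining lists were markers: Cd68 and Egfl7 were called lower, with 68 and 287 counts in clone 2 and 110 and 391 in control, and the call of Cd68 was lost in the 2D table alone (adjusted p = 0.11), with chromosomes centred (adjusted p = 0.0662), without control replicate 2 (adjusted p = 0.206) and without either clone 2 library (adjusted p = 0.063 and 0.142). The call of Egfl7 was lost without control replicate 1 (adjusted p = 0.0612) or clone 2 replicate 2 (adjusted p = 0.0688).

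Position on the chromosomes was also measured, since GENCODE M21 placed 13612 of the 13763 genes (98.9%). The median log2 fold change of the 776 genes of chromosome 1 was -0.29, with 376 called lower (48.45%) and 19 higher, against 15% lower over all genes. It ranged between -0.31 and -0.27 over the 4 pairs of a clone 2 and a control library. Over its genes at 5 CPM or more, in 20 Mb bins along the chromosome, the median lay between -0.44 and -0.25 in all 10 bins, of which 1 held 18 genes. Chromosomes 16 and 11 followed with medians of -0.11 and -0.09, and chromosomes 4, 12 and 6 had the highest medians, 0.20, 0.17 and 0.16. On chromosome 4, 297 of 845 genes were called higher and 47 lower.

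The falls of Atp1b1, Fam129a and Cavin2 were larger than this median. Centring each chromosome on its median, taken from these same data, shrinks falls on chromosome 1 by about that amount by construction. Centred, Atp1b1, Fam129a and Cavin2 lay at -2.73, -2.72 and -2.68. The milder falls of Hsd17b7 and Mcm3 then lay at -0.46 and -0.18, and both still passed the threshold.

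**Figure D4:**
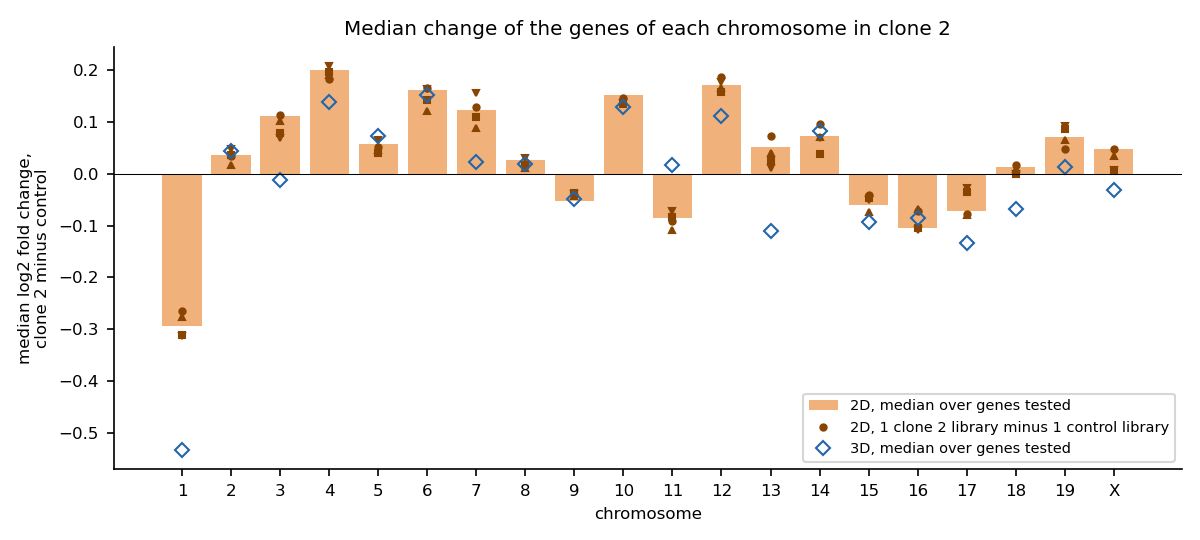
Median log2 fold change of clone 2 against control for the genes of each chromosome, with bars for 2D, small brown symbols for each of the 4 pairs of a clone 2 and a control library in 2D, and blue diamonds for 3D. Chromosome 1 has the lowest median in both formats, -0.29 in 2D and -0.53 in 3D, and chromosome 4 the highest in 2D, 0.20.

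The same clone and control were also sequenced from collagen gels, in libraries that share none with the 2D comparison. In 3D 29.2% of genes were called between clone 2 and control, 11.9% higher and 17.4% lower. Of the 2596 genes higher in 2D, 659 were called higher in 3D, 25.4% of the 2D list and 40.4% of the 1631 in the 3D list, and 280 were called lower there. Of the 2065 genes lower in 2D, 931 were called lower in 3D, 45.1% of the 2D list and 38.9% of the 2392 in the 3D list, and 119 were called higher. Both directions together gave 1590 genes called the same way, and 1052 with each chromosome centred on its median. Chromosome 1 had the lowest median in both formats, -0.29 in 2D and -0.53 in 3D. The difference between formats itself passed the threshold for 3059 genes (22.2%). Without clone 2 replicate 1 or control replicate 2 of the 3D libraries that number was 1884 or 1968. Culture format, collagenase digestion and count table change together here and cannot be told apart.

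Several leading falls were called in both formats, with no call on the difference between them. Podnl1 lay at -3.33 in 2D and -3.01 in 3D, Slc39a4 at -4.05 and -3.97, Atp1b1 at -3.02 and -3.44, and Cavin2 at -2.98 and -3.20 (adjusted p of the difference between formats = 0.317, 0.947, 0.369 and 0.73). Sparc fell further in 3D, where clone 2 had 1.64 and 1.42 CPM, against 64.6 and 66.6 CPM in control (-5.41, difference of 3D minus 2D -3.01, adjusted p = 1.96e-13). Nlrc5 fell less in 3D (-1.41, difference 2.68, adjusted p = 2.19e-08), and so did Mmp3 (-0.88, difference 1.82, adjusted p = 3.09e-09). Etv4 was not called in 3D, with 86.6 and 91.5 CPM in clone 2, against 94.7 and 99.4 CPM in control (-0.12, adjusted p = 0.116), and its difference between formats was called (0.57, adjusted p = 5.46e-05).

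Rises on plastic had varied values in 3D. Col12a1 and Txnip were higher in both formats, by 2.06 and 2.04 in 2D and by 1.02 and 0.96 in 3D. Lypd3, at 1.80 in 2D, lay at -0.01 in 3D (difference -1.81, adjusted p = 2.76e-08). Id1 and Id2, higher in 2D, were lower in 3D, at -0.43 and -0.91 (differences -1.65 and -1.88, adjusted p = 2.29e-08 and 3.1e-10). Mmp9 and Cxcl5, lower in 2D, were higher in 3D, at 0.42 and 0.64 (differences 1.42 and 1.49, adjusted p = 1.21e-08 and 4.35e-09).

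Counts over some lists are given for both formats, against 11.9% higher and 17.4% lower over all genes in 3D. The 3D libraries were deeper, with 27.2 and 26.5 M counts in clone 2 and 27.1 and 28.3 M in control. The part of depth in the counts of calls was not tested. The interferon list had 5 of 38 genes higher and 9 lower in 2D, and 27 higher and 2 lower in 3D, with medians of -0.05 and 0.57. Replication and mitosis had 14 of 28 genes higher and 4 lower in 2D, and none higher and 23 lower in 3D, with medians of 0.14 and -0.32. For the actin list, 13 of 20 were higher and 1 lower in 2D, and 1 higher and 5 lower in 3D. Fatty acid synthesis had 10 of 14 lower and 1 higher in 2D, and 1 lower and 3 higher in 3D. MHC class I presentation had 2 of 20 higher and 11 lower in 2D, and 6 higher and 7 lower in 3D. Its medians were -0.46 and -0.06. Hypoxia and glycolysis had 16 of 30 higher and 3 lower in 2D, and 8 higher and 6 lower in 3D. The medians of that list were 0.21 and -0.08. The difference between formats passed the threshold for 25 of the 28 replication genes, 11 of the 38 interferon genes, 11 of the 20 actin genes and 10 of the 14 fatty acid genes, against 22.2% of all genes. It also passed for 10 of the 20 MHC class I genes and 18 of the 30 hypoxia and glycolysis genes.

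**Figure D5:**
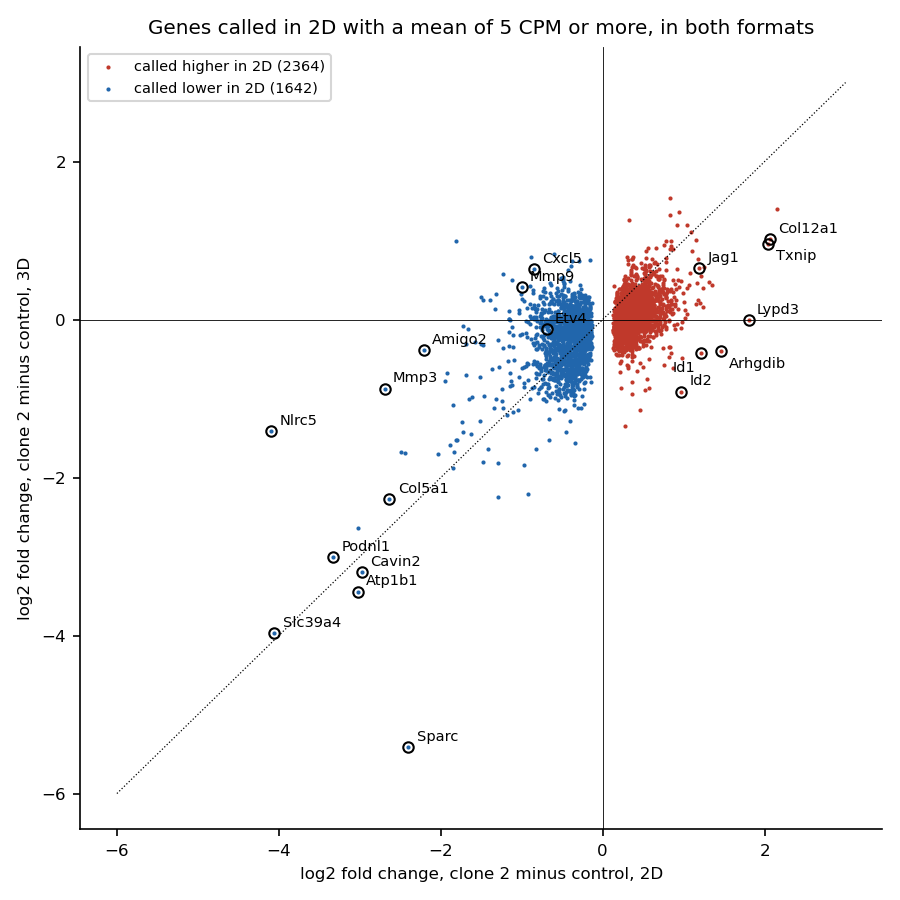
Log2 fold change of clone 2 against control in 2D (horizontal axis) and in 3D (vertical axis) for genes called in 2D with a mean of at least 5 CPM, red where higher in 2D (2364 genes) and blue where lower (1642 genes), with equal values on the dotted line. Podnl1, Slc39a4, Atp1b1 and Cavin2 lie near that line, Sparc well below it at -5.41 in 3D, and Id1 and Id2 are above 0 in 2D and below 0 in 3D.

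Knockout clone 1 was compared with clone 2 within the 2D libraries, and 5732 genes (41.6%) differed between the clones. Both clones are set against the same control libraries, from which clone 1 differed in 39.8% of genes, so their values are given side by side. Etv4 had 49.3 and 46 CPM in clone 2 and 49.8 and 49.2 CPM in clone 1, against 78.1 and 76 CPM in control, and the clones did not differ past the threshold (log2 difference -0.05, adjusted p = 0.603). Podnl1 was low in clone 1 too, with 7.05 and 5.26 CPM in clone 2 and 6.50 and 6.59 CPM in clone 1 (log2 difference -0.07, adjusted p = 0.837). Slc39a4 lay at -4.05 against control in clone 2 and at -5.55 in clone 1, Nlrc5 at -4.10 and -2.61, Mmp3 at -2.69 and -1.76, and Txnip at 2.04 and 1.81.

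Other leading genes of clone 2 also differed between the clones. Cavin2 had 3.25 and 1.92 CPM in clone 2 and 387 and 362 CPM in clone 1, against 22.4 and 19.8 CPM in control, a log2 difference of -7.13 between the clones (adjusted p = 2.94e-24). Sparc had 19 and 20.3 CPM in clone 2 and 168 and 163 CPM in clone 1 (-3.07, adjusted p = 2e-21), and Col5a1 5.15 and 6.12 CPM in clone 2 and 73 and 83.8 CPM in clone 1 (-3.81, adjusted p = 2.88e-19). Jag1 had 138 and 148 CPM in clone 2 and 32.1 and 32.5 CPM in clone 1 (2.14, adjusted p = 1.31e-17), and Mest 36.2 and 42 CPM in clone 2 and 5.73 and 4.42 CPM in clone 1 (2.93, adjusted p = 2.45e-15). Etv5 was lower in clone 1, with 45.6 and 45.3 CPM in clone 2 and 27.5 and 27.3 CPM in clone 1 (0.73, adjusted p = 9.82e-08). Relative to control these genes were thus called in opposite directions in the clones, except Etv5, which was not called in clone 2.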

How the data were processed

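Polyadenylated RNA of 4T1 cells was sequenced in 12 libraries, 2 per group, of which this comparison used 4, with 18.7 and 14.4 M counts in clone 2 and 13.9 and 14.4 M in control. The authors deposited raw read counts per gene symbol, 1 table for 2D and another for 3D. Per the submitters' processing notes the tools were Cell Ranger 3.0.0, R 4.1.1, STAR 2.7.9a, FastQC 0.11.9 and featureCounts, with genome build mm10; the strand setting of the counting is not given in the sources used here. Counts of both tables were fitted jointly in R 4.3.3 with edgeR 4.0.16 (limma 3.58.1): filterByExpr, scaling by trimmed means of M values (TMM), a mean per group and the quasi-likelihood method (6 residual degrees of freedom), after a test on simulated data. Adjusted p values are two-sided, from that edgeR quasi-likelihood test, by Benjamini-Hochberg over 13763 genes (threshold 0.05). DESeq2 1.42.0 and other settings served as alternatives.

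Log2 fold changes carry a standard error worked back from the test, the absolute change divided by the square root of the quasi-likelihood F value. Named genes were Etv4, Etv1 and Etv5, the 15 higher and 15 lower with the largest change at 5 CPM or more, genes nearly lost or gained, and for each list up to 4 called members with the smallest p and any changed at least 2-fold; other members were named after their values were seen, and results for a few genes are not reported here. Members and gene lists were chosen with earlier results of these data known. A fold against 0 counts uses a floor of 3 counts over the group, and ratios with 1 to 3 counts in a group carry a 95% interval; both cover counting error only. No list's median moved when such genes were set to their bound. Replicates of a group differed by more than sampling noise. Positions and exon overlaps came from GENCODE M21 and promoters from RefSeq.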

Additional observations from a re-analysis of the deposited data

Results flagged for a closer look

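The difference of clone 2 from control changed between formats, in edgeR's test of that change, for 45 genes that were either leading genes or PEA3 factors, or other named genes called in opposite directions in the formats. Each value here is the log2 fold change of clone 2 over control in 3D minus that in 2D. In 22 of them clone 2 was called in opposite directions in 2D and in 3D. These were Id1 at -1.65, Mmp9 at 1.42, Lgals1 at -0.68, Oasl2 at 2.26 and Ifit1 at 2.97. They also included Cxcl5 at 1.49, Ldha at -0.81, Lss at 0.87, Mvd at 0.79, Id2 at -1.88 and Ehd2 at -0.44. Further ones were Rrm1 at -0.79, Cdkn1a at -2.82, Slc3a2 at -0.57, Arrdc3 at -1.47, Areg at -1.11 and Krt19 at -0.83. The others were Krt8 at -0.56, Krt18 at -0.38, Col7a1 at 1.07, Neat1 at 1.13 and Lama3 at -1.30. The 2D calls of Oasl2, Ifit1 and Ehd2 were lost in 4, 14 and 3 of the alternative settings.

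The other 23, leading genes or PEA3 factors, differed between formats without opposite calls. Among them stood Etv4 at 0.57, Etv1 at -0.35, Col12a1 at -1.05, Txnip at -1.08, Lypd3 at -1.81 and Arhgdib at -1.85. Next came Irak2 at -0.91, Grcc10 at -0.84, Epha1 at -0.59, Zfp575 at -1.09, Mest at -0.84 and Map6 at -0.66. Then followed Vdr at -0.99, Jag1 at -0.54, Tkfc at -0.94, Nlrc5 at 2.68, Mmp3 at 1.82 and Pcolce at 0.75. The last were Sparc at -3.01, Amigo2 at 1.82, Spp1 at 0.32, Rcor2 at 1.17 and Bsn at 1.26. Sparc fell further in 3D, and the rises of Col12a1, Txnip and Jag1 were smaller there. Leaving out clone 2 replicate 1 or control replicate 2 of the 3D libraries lowered the number of genes with such a difference, over all genes, to 1884 or 1968.

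Between the clones in 2D, 7 leading genes were called in opposite directions against the shared control libraries, and clone 2 differed from clone 1 in a direct test. The log2 differences, clone 2 minus clone 1, were Mest at 2.93, Vdr at 2.22, Jag1 at 2.14, Cavin2 at -7.13, Col5a1 at -3.81, Sparc at -3.07 and Amigo2 at -2.70.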

How the results depend on the processing

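Etv4 kept its direction and its call in all 21 alternatives, between -0.74 and -0.65 when single libraries were left out, and no named gene changed direction in any. Of 155 named genes called, 135 stayed past the threshold in every setting that gave them a value. The 2D table alone gave a value for 149 of the 156 named genes, among them Etv5, which was not called. Each table fitted alone gave 1534 genes higher, and 94 at least 2-fold higher and 271 lower. With chromosomes centred 1854 were higher and 1879 lower. The 4 libraries of clone 2 and control alone gave 1458 higher, and 87 at least 2-fold higher and 261 lower. In both, the spread comes from fewer libraries and from 2D only. With only genes free of exon overlap, fewer genes were tested: 1649 were higher and 1326 lower, 129 at least 2-fold higher, 1046 the same way in 3D, 1985 had a called difference between formats and 3632 between the clones. Restricting calls to 2-fold left 216 higher and 441 lower. With chromosomes centred, 1052 were called the same way in 3D; the cause was not tested. Leaving out 1 library gave 2115 to 2733 genes higher, 1607 to 2205 lower, 189 to 240 at least 2-fold higher, 403 to 490 lower, 1060 to 1719 the same way in 3D, 4864 to 6178 between the clones and 1884 to 3328 between formats. The difference between formats has no value when each table is fitted alone. A replicate block within format gave 2563 higher and 2025 lower. The replicate deviations of clone 2 and control in 2D correlated at 0.02, which gave no sign of pairing by replicate number. With 2 libraries per group this cannot show whether equal numbers were prepared together.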
